A study of Mus musculus with 6 samples.

Results

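Dual specificity phosphatases are encoded by the Dusp genes, and 20 of these are rows of a single-cell count table of 14597 genes. Dusp1, Dusp2, Dusp4, Dusp5, Dusp6, Dusp10 and Dusp14, 7 of the 20, are described here. They were chosen by name with their levels in Cd4, Cd8 and Foxp3 expressing cells, in Ccr8+ and Pdcd1+ cells and in each library already known, so those levels are given as a description and no test was applied to them. The cells are TCRβ+ T cells that were sorted from subcutaneous tumors of B16-F10, a mouse melanoma line, grown in Foxp3-EGFP-DTR mice. In this strain the endogenous Foxp3 gene drives a diphtheria toxin receptor fused with a green fluorescent protein in PBS and DTx animals alike, and diphtheria toxin (DTx) depletes the Foxp3+ Treg cells that carry it. Labels give 3 samples from mice that received PBS and 3 from mice that received DTx, and they state no age. The table holds 12818 cells of 6 libraries, numbered 1 to 6, and 0 of these numbers could be matched to a sample. No difference between PBS and DTx was therefore measured, a library is not a replicate of any group, and each library's own value is given.

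Dual specificity phosphatases remove phosphate from tyrosine as well as from serine or threonine. The MAP kinase phosphatases among them take both phosphates off the activation loop of ERK, JNK or p38 and so switch the kinase off, and many are transcribed in response to the same kinases, which makes them negative feedback genes. In T cells, signals from the antigen receptor and from cytokines pass through ERK, JNK and p38, and several Dusp genes are known as early response genes after receptor ligation.

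By role the 7 genes fall into 4 kinds. DUSP1, DUSP2, DUSP4 and DUSP5 are inducible phosphatases of the nucleus, of which DUSP5 acts on ERK alone. DUSP6 is a cytoplasmic phosphatase specific for ERK, DUSP10 acts on JNK and p38, and DUSP14 is a small atypical member without the kinase-binding domain of the others. By the GENCODE annotation of GRCm38, Dusp1 lies on chromosome 17 from 26505590 to 26562128 (minus strand), Dusp2 on chromosome 2 from 127336159 to 127338376 (plus strand) and Dusp4 on chromosome 8 from 34807297 to 34819894 (plus strand). Dusp5 lies on chromosome 19 from 53529109 to 53542431 (plus strand), and Dusp6 on chromosome 10 from 99263231 to 99267489 (plus strand). Dusp10 lies on chromosome 1 from 184013302 to 184075636 (plus strand), and Dusp14 on chromosome 11 from 84048041 to 84069261 (minus strand). The methods name mm10, which is GRCm38, for mapping, whereas the processing notes of the labels name mm9. The coordinates are those of GRCm38 and were not used to count.

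Promoter sequence is shown for Dusp1, Dusp2 and Dusp5, the 3 most abundant of the inducible nuclear phosphatases, because they carry letters of motifs that belong to stimulus-responsive transcription. The runs come from RefSeq on GRCm38.p6, read 5′ to 3′ on the strand of the gene, and end where an annotated exon begins. The Dusp1 run lies within the annotated span of the gene, whose 5′ end is at 26562128. Capitals mark matches, on either strand, to the cyclic AMP response element (CRE) TGACGTCA, its short core TGACG, the AP-1 site TGANTCA, the E-box CACGTG, the EGR site GCGNGGGCG and the serum response CArG box, and a full CRE also holds the core.
Dusp1, chr17:26508520-26508722, minus strand: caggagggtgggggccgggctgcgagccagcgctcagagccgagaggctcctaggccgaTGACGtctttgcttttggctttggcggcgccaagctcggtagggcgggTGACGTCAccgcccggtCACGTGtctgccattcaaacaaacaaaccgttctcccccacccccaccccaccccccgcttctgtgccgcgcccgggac
Dusp2, chr2:127335909-127336158, plus strand: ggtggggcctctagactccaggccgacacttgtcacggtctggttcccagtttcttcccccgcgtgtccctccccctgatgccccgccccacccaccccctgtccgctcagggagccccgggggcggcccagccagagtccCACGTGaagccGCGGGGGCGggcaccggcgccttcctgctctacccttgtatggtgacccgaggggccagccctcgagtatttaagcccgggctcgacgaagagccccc
Dusp5, chr19:53528895-53529108, plus strand: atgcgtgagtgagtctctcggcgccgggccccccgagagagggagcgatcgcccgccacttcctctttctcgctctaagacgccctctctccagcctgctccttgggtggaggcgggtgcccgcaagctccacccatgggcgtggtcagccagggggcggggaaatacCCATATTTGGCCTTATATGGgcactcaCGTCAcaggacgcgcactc

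The 3 runs differ in the motifs they carry. Counted from the start site, Dusp1 has a full CRE at -143, a separate core at -191 and an E-box at -126. Dusp2 has an E-box at -109 and an EGR site at -98, and Dusp5 has 2 CArG boxes that follow each other at -82 and -72 and a CRE core at -55. Over the 250 bases before the start sites of 32851 RefSeq promoters, a full CRE was present in 1.55%, its core in 17.8%, the AP-1 site in 6.75%, the E-box in 6.02%, the CArG box in 1.47% and the EGR site in 4.70%. Entries were found for 6 of the 7 genes, all but Dusp4. Dusp6, Dusp10 and Dusp14 had none of these motifs in the same window, which says only that the letters are absent from it. The Dusp10 and Dusp14 windows lie within the annotated spans of these genes. In the Dusp14 window only the first 27 bases precede an annotated exon. The short NFAT core GGAAA, found in 55.6% of promoters, was not capitalized.

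The cells matched the label of the sort. A T cell marker transcript (Cd3d, Cd3e, Cd3g, Trac, Trbc1 or Trbc2) was found in 95.4% of cells, and these markers summed to 38.3 to 42.2 UMIs per 10,000 UMIs in the libraries. A UMI (unique molecular identifier) is a counted transcript molecule, and UMIs per 10,000 UMIs is the unit called level below. Since the libraries tag 5′ ends, a level counts molecules and is not divided by gene length. Markers of other cells were low. In the libraries, B cell markers summed to a level of 0.113 to 0.464, myeloid markers to 0.610 to 1.45, NK markers to 0.0283 to 0.256, stromal markers to 0 to 0.0104 and melanoma markers to 0.00522 to 0.0881. CD4+ Tconv cells had a Cd4 UMI and none of Cd8a, Cd8b1 or Foxp3 (1205 cells), CD8+ T cells had a Cd8a or Cd8b1 UMI and none of Cd4 or Foxp3 (4497 cells), and Foxp3+ cells had a Foxp3 UMI and none of Cd8a or Cd8b1 (97 cells). No gating UMI was found in 6838 cells. A gate thus rests on mRNA that was seen, and a cell without the UMI may still express the gene.

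The libraries were unequal in depth. Totals ran from 1916305 to 5127776 UMIs and median depth from 610 to 2499.5 UMIs per cell. The summed level of 8 heat shock and dissociation genes was 98.3, 110, 113, 74.3, 51.5 and 59.9 in libraries 1 to 6. Of the barcodes, 76 occurred in more than 1 library, in 152 cells.

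Transcripts of the 7 genes were found in most cells. They summed to 40870 UMIs, a level of 18.7, and 78.4% of cells carried at least 1 of them. They made up 88.0% of the UMIs of all 20 Dusp genes, and Dusp1 and Dusp2 alone held 71.0% of the UMIs of the 7. The median cell showed transcripts of 1 of the 7 genes and the highest number in a cell was 6.

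The level differed from each member to the next. In the pool, Dusp1 had a level of 7.49 (95% exact Poisson interval 7.38 to 7.61), Dusp2 5.81 (5.70 to 5.91), Dusp5 2.80 (2.73 to 2.87) and Dusp10 1.97 (1.91 to 2.03). Dusp4 followed at 0.341 (0.317 to 0.367), Dusp6 at 0.204 (0.186 to 0.224) and Dusp14 at 0.115 (0.101 to 0.130). None of these intervals overlapped. Intervals given here and below cover counting error only and say nothing of differences between animals. The share of cells with a UMI ran in the same order, from 49.1% for Dusp1, 38.8% for Dusp2, 27.8% for Dusp5 and 20.6% for Dusp10 to 4.76% for Dusp4, 3.03% for Dusp6 and 1.26% for Dusp14. Free RNA adds UMIs to such shares, and the sort held no cell type known to lack these genes in which it could be read.

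Dusp14 was seen in 161 cells, with up to 13 UMIs in 1 cell. Of these cells 30.4% had at least 2 UMIs of the gene, against 11.6% of Dusp6 cells and 16.6% of Dusp4 cells. Cells with Dusp14 were also deep, with a median of 3561 UMIs against 1250.5 in all cells.

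**Figure D1:**
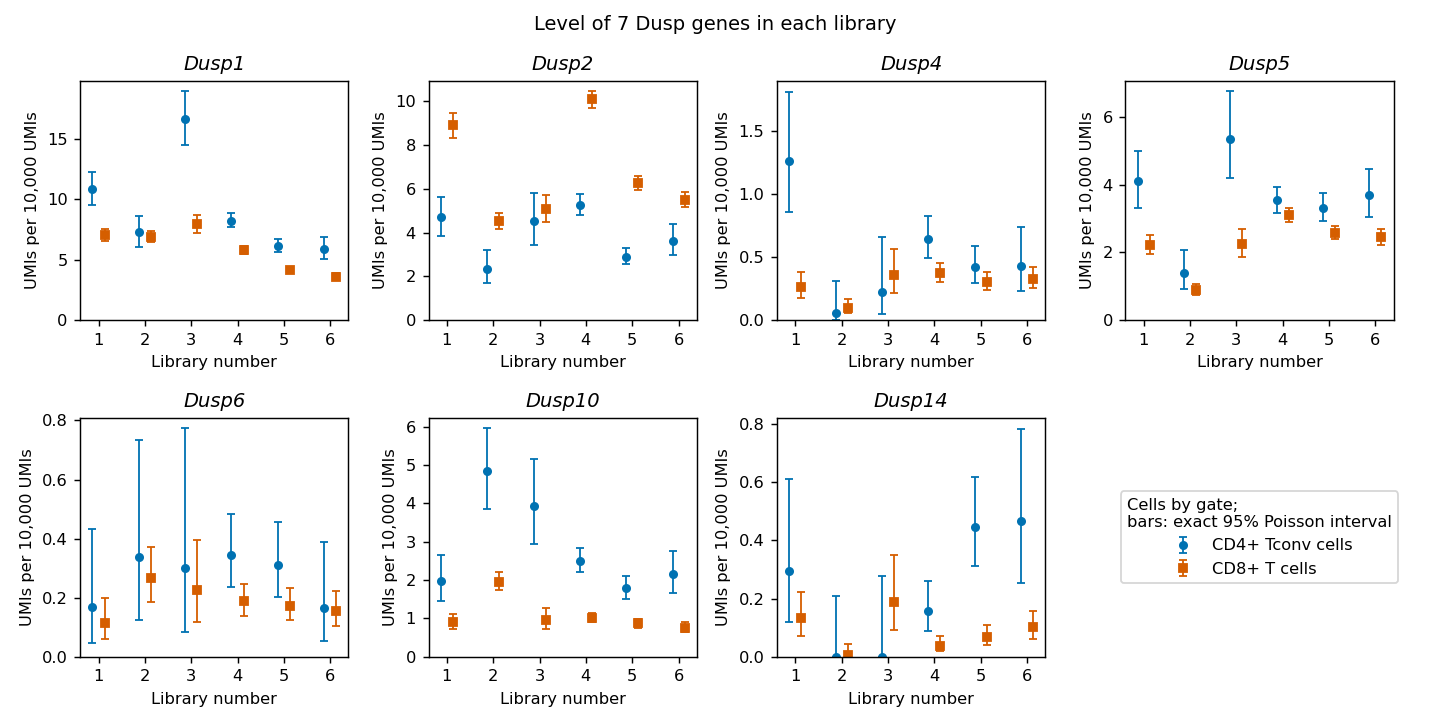
Level of each of the 7 Dusp genes (UMIs per 10,000 UMIs, linear axes from 0) in CD4+ Tconv (circles) and CD8+ T cells (squares) of libraries 1 to 6; bars are exact 95% Poisson intervals. Dusp10 was higher in CD4+ Tconv cells and Dusp2 higher in CD8+ T cells of all 6 libraries, and the Dusp4 level of CD4+ Tconv cells was highest in library 1 at 1.27.

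Dusp1, which encodes an early response phosphatase for p38, JNK and ERK, was the most abundant of the family. Its level in all cells was 10.3, 7.57, 12.3, 7.82, 5.65 and 4.64 in libraries 1 to 6. Library 3 was the highest and library 6 the lowest, 2.66 times apart (2.49 to 2.83), and only libraries 4 and 2 had overlapping intervals as neighbours in the order. The heat shock and dissociation genes, among which Hspa1a and Hspa1b are known to be induced during tissue processing, were also highest in library 3, and 20 immediate early genes summed to 124, 134, 142, 75.0, 60.4 and 57.7 in libraries 1 to 6. Their part in the Dusp1 level was not tested.

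Dusp1 was higher in CD4+ Tconv than in CD8+ T cells. The CD4+ Tconv levels were 10.9, 7.30, 16.7, 8.25, 6.18 and 5.92 in libraries 1 to 6, and the CD8+ T levels were 7.03, 6.90, 7.95, 5.80, 4.17 and 3.58. The CD4+ value exceeded the CD8+ value in 6 of 6 libraries. Matched by library, where the expected UMIs come from the other population's share of the gene in each library, the ratio of observed to expected was 1.49 (1.41 to 1.57), just under the 1.5-fold limit used here to call a ratio. Heat shock and dissociation genes summed to 75.1 in CD4+ Tconv, 65.4 in CD8+ T and 102 in Foxp3+ cells. Dusp1 had a level of 10.6 (9.19 to 12.1) in the last, and these pooled levels were not matched by library. Matched by library, the Dusp1 ratio of Foxp3+ to CD4+ Tconv cells was 0.976 (0.833 to 1.14), higher in 2 of 3 libraries.

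Within a lineage the Dusp1 ratio lay on both sides of 1. It was 0.844 (0.791 to 0.901) in Pdcd1+ over Pdcd1- CD8+ T cells, lower in 5 of 5 libraries, and 1.01 (0.915 to 1.12) for the same gate in CD4+ Tconv cells. Pdcd1 encodes the inhibitory receptor PD-1. In CD4+ Tconv cells with a UMI of Il2ra, the gene of the IL-2 receptor α chain, it was 0.682 (0.610 to 0.761). With Havcr2, the gene of the inhibitory receptor TIM-3, it was 0.741 in CD4+ Tconv and 0.724 in CD8+ T cells. CD8+ T cells with a UMI of the cytotoxic protease gene Gzmb were at 0.751 (0.711 to 0.793), lower in 5 of 5 libraries, and those with a UMI of the Th2 cytokine genes Il4, Il5 or Il13 at 1.45 (1.23 to 1.69). The ratio passed the limit in a single state, in CD4+ Tconv cells with a UMI of the proliferation genes Mki67 or Top2a, where Dusp1 was at 0.619 (0.548 to 0.698) of the level of the others and lower in 3 of 3 libraries. The call was lost at 0.744 when cells were also matched for depth, and at 0.767 without library 4.

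Dusp2, also known as PAC-1, was first found as a phosphatase induced in activated T cells. Its level in all cells was 7.22, 3.96, 4.81, 8.09, 4.97 and 4.71 in libraries 1 to 6. Library 4 was highest and library 2 lowest, 2.04 times apart (1.92 to 2.18), and libraries 5, 3 and 6 could not be ordered within their intervals. Its gating went opposite to that of Dusp1. The CD4+ Tconv levels were 4.69, 2.36, 4.53, 5.27, 2.90 and 3.63, and the CD8+ T levels were 8.90, 4.53, 5.07, 10.1, 6.25 and 5.49. All 6 libraries were lower in CD4+ Tconv cells, with a ratio of 0.532 (0.498 to 0.567), and Dusp2 was the only one of the 7 genes higher in CD8+ T cells by its ratio.

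Foxp3+ cells had the lowest Dusp2 level of the gated cells, 2.35 (1.72 to 3.14), against 4.06 in CD4+ Tconv, 7.12 in CD8+ T and 4.89 in cells without a gating UMI. In libraries 1, 2 and 3, which held 49, 30 and 17 Foxp3+ cells, the levels were 2.80, 1.88 and 1.78 against 4.69, 2.36 and 4.53 in CD4+ Tconv cells of the same library. The Foxp3+ cells were lower in each, with a ratio of 0.585 (0.420 to 0.799).

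Within CD4+ Tconv cells Dusp2 followed Ifng, the gene of the Th1 cytokine interferon-γ. In libraries 1, 3, 4, 5 and 6 the Dusp2 level of cells with an Ifng UMI was 7.47, 12.6, 6.94, 3.52 and 5.24, and that of cells without was 3.57, 2.31, 4.25, 2.42 and 2.76. Each library was higher in Ifng+ cells, and the ratio was 1.72 (1.52 to 1.95; 349 against 856 cells). Leaving out any library, or using any other setting tried, kept it between 1.64 and 1.85. Among CD8+ T cells the same gate gave a ratio of 1.28 (1.22 to 1.34), with 6 of 6 libraries higher but under the limit.

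Dusp2 was low where the Th2 cytokine genes Il4, Il5 or Il13 were seen. Its level in CD4+ Tconv cells of libraries 4, 5 and 6 was 3.6, 1.78 and 1.28 with such a UMI and 6.09, 3.22 and 4.06 without. The ratio was 0.584 (0.490 to 0.692), or 0.744 when cells were also matched for depth. It was 0.583 (0.477 to 0.706) in CD8+ T cells, and 0.595 (0.551 to 0.640) in Il2ra+ CD8+ T cells, lower in 4 of 4 libraries. Both fell short of the limit once matched for depth, at 0.705 and 0.696, and the first also without library 4 (0.679).

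Dusp4, which encodes a phosphatase for ERK and JNK, was rare and differed between libraries in CD4+ Tconv cells. Its level there was 1.27, 0.0561, 0.226, 0.648, 0.422 and 0.433 in libraries 1 to 6, which rest on 30, 1, 3, 62, 34 and 13 UMIs. The CD8+ T levels were 0.264, 0.0992, 0.360, 0.375, 0.306 and 0.330. Pooled, the ratio of CD4+ Tconv to CD8+ T cells was 1.72 (1.4 to 2.11), with 4 of 6 libraries higher. It rests on library 1, where the ratio was 4.80, and was 1.47 without that library. The highest level of any gate was that of Foxp3+ cells, 1.07 (0.665 to 1.64) from 21 UMIs. Against CD4+ Tconv cells this was a ratio of 1.43 (0.811 to 2.44), which became 10.5 without library 1 and 0.764 without library 2.

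In CD8+ T cells Dusp4 was higher with Il2ra, Pdcd1 and Havcr2, whereas Ifng gave a ratio of 0.965 (0.764 to 1.22) and proliferation 0.990 (0.752 to 1.29). Its level in Il2ra+ cells of libraries 1, 4, 5 and 6 was 0.654, 0.826, 0.480 and 0.552, against 0.247, 0.269, 0.242 and 0.267 in Il2ra- cells, a ratio of 2.46 (1.92 to 3.14). All 4 libraries were higher. The ratio was 1.78 (1.4 to 2.25; 4 of 5 libraries higher) for Pdcd1+ cells and 1.68 (1.27 to 2.21; 4 of 4 libraries) for Havcr2+ cells. It was 1.60 (1.24 to 2.08) for Gzmb+ cells, a call lost without library 4 (1.47), without library 5 (1.42) and on matching for depth (1.34). Dusp4 was also higher in Il2ra+ CD4+ Tconv cells, at 1.73 (1.21 to 2.45; 3 of 4 libraries), but the Pdcd1 gate gave 0.999 (0.671 to 1.46).

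Dusp4 was nearly missing from CD4+ Tconv cells with a UMI of Tcf7, which encodes the transcription factor TCF-1 of naive and stem-like T cells. The 180 Tcf7+ cells held 5 Dusp4 UMIs where 23.7 were expected, a ratio of 0.211 (0.0673 to 0.504). Levels in Tcf7+ cells of libraries 1 to 5 were 0.508, 0, 0, 0.149 and 0, and those of Tcf7- cells were 1.52, 0.0827, 0.283, 0.730 and 0.463. Each library was lower in Tcf7+ cells, although libraries 2 and 3 had no more than 3 Dusp4 UMIs on either side. Without library 1 the ratio was 0.136. In CD8+ T cells the Tcf7 gate gave 0.989 (0.706 to 1.36).

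Dusp5, which encodes the nuclear phosphatase for ERK, had its lowest level in library 2. Its level in all cells was 2.91, 1.3, 3.30, 3.45, 2.91 and 2.70 in libraries 1 to 6, and only library 2 stood apart from its neighbor in the order, at 2.65 times below library 4 (2.38 to 2.96). In CD4+ Tconv cells the levels were 4.10, 1.4, 5.36, 3.53, 3.33 and 3.69, and in CD8+ T cells 2.22, 0.892, 2.25, 3.09, 2.58 and 2.44. CD4+ Tconv cells were higher in 6 of 6 libraries with a ratio of 1.35 (1.25 to 1.45), which is not a call. Its ratio was 1.44 (1.32 to 1.57) in Gzmb+ CD8+ T cells, higher in 5 of 5 libraries, and 1.58 (1.28 to 1.93) in the 54 CD8+ T cells with an Il4, Il5 or Il13 UMI. Only the last was a call, and it was lost without library 4 (1.46). Whether the counting used strand was not given in the sources used here, so reads of antisense transcripts at this locus cannot be told apart from those of Dusp5.

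Dusp6, the cytoplasmic ERK phosphatase, had 446 UMIs in all. Its level was 0.136, 0.208, 0.204, 0.259, 0.205 and 0.179 in libraries 1 to 6, and no neighbours in the order were apart beyond their intervals. In CD4+ Tconv cells the levels were 0.169, 0.337, 0.302, 0.345, 0.310 and 0.166, from 4 to 33 UMIs, and in CD8+ T cells 0.113, 0.267, 0.227, 0.187, 0.173 and 0.154. The CD4+ value was higher in each library, with a ratio of 1.64 (1.24 to 2.15). Among CD4+ Tconv cells Dusp6 was 2.02 times higher (1.17 to 3.36; 3 of 4 libraries) with a UMI of Ccr8, the gene of a chemokine receptor of tumor Treg cells and of some Tconv cells. That ratio stands on 22 UMIs in 16 cells. A ratio of 1.83 (1.0 to 3.18) in Tcf7+ CD4+ Tconv cells was 2.86 without library 4 and did not last without library 5 (1.48). Foxp3+ cells held 2 Dusp6 UMIs where 4.64 were expected, too few to describe.

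Dusp10, which encodes the phosphatase of JNK and p38 known as MKP-5, had its highest level in library 2. Its level in all cells was 1.59, 3.56, 2.51, 1.97, 1.46 and 1.32 in libraries 1 to 6, a span of 2.69 times (2.41 to 3.0). The order 2, 3, 4 at the top was the same within the CD4+ Tconv gate, where the levels were 1.99, 4.83, 3.92, 2.51, 1.79 and 2.16. There the intervals of libraries 2 and 3 overlapped, and so did those of libraries 4 and 6. In CD8+ T cells the levels were 0.906, 1.96, 0.965, 1.02, 0.869 and 0.761, with library 2 alone above the rest.

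Of the more abundant members Dusp10 had the largest difference between lineages. CD4+ Tconv cells were higher in 6 of 6 libraries, with a ratio of 2.44 (2.21 to 2.70). Foxp3+ cells were lower than CD4+ Tconv cells in libraries 1, 2 and 3, at 0.654, 3.39 and 2.67 against 1.99, 4.83 and 3.92. That ratio was 0.562 (0.381 to 0.807), and the call was lost without library 1 (0.688) and on matching for depth (0.667, with 0.5 added to both counts for the call). Pdcd1+ CD4+ Tconv cells had less Dusp10 than Pdcd1- cells in 4 of 4 libraries, 0.594 (0.474 to 0.737), whereas in CD8+ T cells the ratio was 0.993 (0.857 to 1.15). Without the 741 possible doublets the CD4+ value was 0.716.

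Ifng separated Dusp10 in the direction opposite to Dusp2. Within CD4+ Tconv cells of libraries 1, 3, 4, 5 and 6 the Dusp10 level of Ifng+ cells was 1.02, 3.15, 1.08, 0.761 and 1.90, and that of Ifng- cells was 2.38, 4.14, 3.38, 2.59 and 2.30. Each library was lower in Ifng+ cells, with a ratio of 0.379 (0.303 to 0.469), and every alternative tried kept it between 0.335 and 0.428. In CD8+ T cells the ratio was 0.715 (0.626 to 0.815), lower in 6 of 6 libraries.

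**Figure D2:**
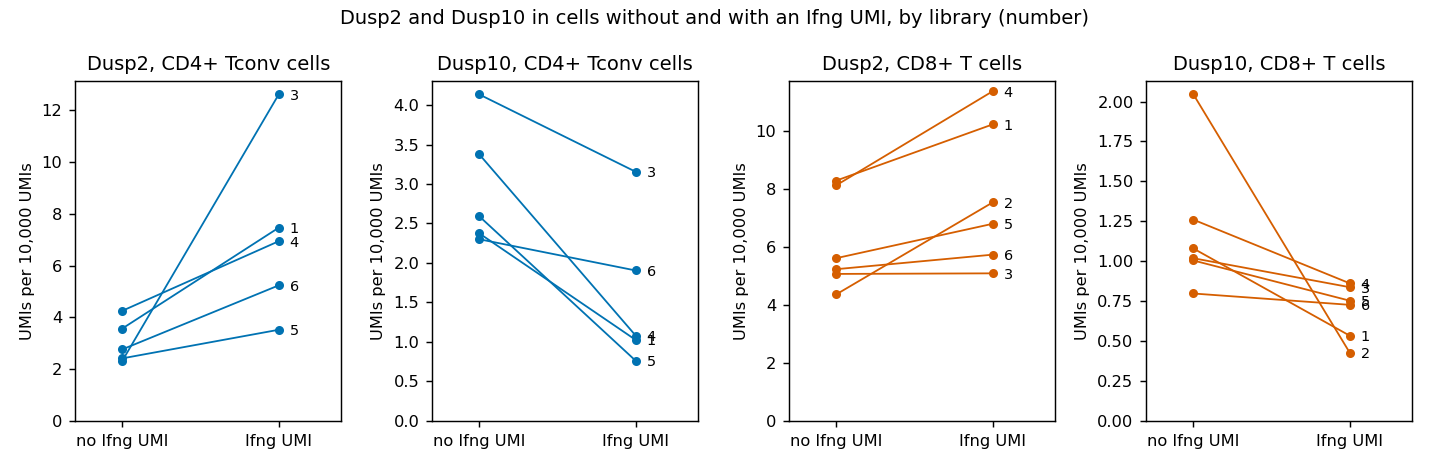
Level of Dusp2 and Dusp10 (UMIs per 10,000 UMIs, linear axes from 0) in cells without and with an Ifng UMI, 1 line for each library, named by its number. In CD4+ Tconv cells all 5 lines rise for Dusp2 and all 5 fall for Dusp10, and in CD8+ T cells all 6 lines go the same ways.

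Th2 cytokine transcripts marked the highest Dusp10 levels of CD8+ T cells. In libraries 4, 5 and 6 the cells with an Il4, Il5 or Il13 UMI had a Dusp10 level of 3.26, 5.29 and 3.40, and those without had 0.927, 0.759 and 0.693. The ratio was 4.47 (3.53 to 5.59) over 54 cells and stayed between 3.70 and 5.35 in every alternative tried. A gate at 2 UMIs was not among these. Median depth was 3933.5 UMIs in the 54 cells against 1698 in CD8+ T cells without such a UMI. The Th2 cytokine gate gave 1.27 (1.04 to 1.54) in CD4+ Tconv cells. CD4+ Tconv cells were also split by both gates. With Ifng alone (318 cells) Dusp2 had a level of 6.07 and Dusp10 0.985. With a Th2 cytokine alone (111 cells) they had 2.75 and 2.98, with neither (745 cells) 3.36 and 3.21, and with both (31 cells) 3.28 and 1.7. The intervals of both genes overlapped in the cells with a Th2 cytokine alone, at 2.26 to 3.32 for Dusp2 and 2.47 to 3.56 for Dusp10. Thus Dusp10 was at about the same level in Th2 cytokine cells as in cells with neither, and it was the Ifng+ cells that were low. Among CD8+ T cells, the 1496 with Ifng alone had Dusp2 at 8.48 and Dusp10 at 0.691, and the 30 with a Th2 cytokine alone had 3.85 and 3.93.

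Dusp10 in Il2ra+ cells differed in direction by lineage. The ratio was 0.645 (0.522 to 0.791) in CD4+ Tconv cells, lower in 4 of 4 libraries, and 1.29 (1.09 to 1.52) in CD8+ T cells, higher in 4 of 4. The difference itself was not tested, and the CD4+ call was lost without library 5 (0.747) and when cells were matched for depth (0.791). The CD8+ ratio was under the limit and was 1.05 at its lowest among the alternatives.

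Dusp14, whose product has been tied to signaling below the T cell receptor, was the rarest member and had the highest ratio of CD4+ Tconv to CD8+ T cells. Its level in all cells was 0.159, 0.0315, 0.130, 0.101, 0.133 and 0.139 in libraries 1 to 6, and library 2 was 5.06 times below library 1 (2.53 to 11.2). CD4+ Tconv levels were 0.296, 0, 0, 0.157, 0.447 and 0.466, and CD8+ T levels were 0.132, 0.00763, 0.189, 0.0383, 0.0684 and 0.101. The ratio of CD4+ Tconv to CD8+ T cells was 4.0 (2.84 to 5.64) from 72 UMIs in 37 cells, with 4 of 6 libraries higher. A single cell with 13 UMIs took part, and without it the ratio was 3.29. Libraries 2 and 3 had no Dusp14 UMI in their 151 and 123 CD4+ Tconv cells.

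Dusp14 was higher with each of Ccr8, Pdcd1 and Il2ra. In CD4+ Tconv cells of libraries 1, 4, 5 and 6 its level was 0.785, 0.444, 0.856 and 3.11 in Ccr8+ and 0.162, 0.0684, 0.385 and 0.218 in Ccr8- cells. All 4 libraries were higher, with a ratio of 4.44 (2.69 to 7.26) that was 7.52 without library 5. For Il2ra the levels were 0.882, 0.383, 1.03 and 0.777 against 0.197, 0.0466, 0.166 and 0.381, a ratio of 5.26 (3.17 to 8.92), or 3.84 without the cell with 13 UMIs. Il2ra+ cells were thus higher in each library too. The Pdcd1 gate gave 2.43 (1.48 to 3.96; 3 of 4 libraries) in CD4+ Tconv cells, a value that was 4.40 without library 5 and 1.64 without library 6. Foxp3+ cells held 9 Dusp14 UMIs where 3.25 were expected, a ratio of 2.77 (1.12 to 6.31) that is under the minimum of 50 UMIs and takes 8 of the 9 from library 1.

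In CD8+ T cells Dusp14 was 4.90 times higher (2.94 to 8.38) in Pdcd1+ cells. The levels in libraries 1, 3, 4, 5 and 6 were 0.369, 0.760, 0.0435, 0.138 and 0.253 against 0.0805, 0, 0.0354, 0.0310 and 0.0377, so that 5 of 5 libraries were higher, library 4 by little. It was 4.03 times higher (2.30 to 7.42) in Gzmb+ cells, also in 5 of 5 libraries, and this ratio was 2.61 without library 6, where the 366 Gzmb- cells held no Dusp14 UMI. Matched for depth it was 2.22 and thinned to 1000 UMIs 1.60, whereas the Pdcd1 ratio was 4.01 matched for depth and 2.55 without possible doublets. Il2ra+ CD8+ T cells were at 2.5 (1.46 to 4.18; 3 of 4 libraries). The Gzmb gate gave 0.738 (0.388 to 1.32) in CD4+ Tconv cells. Dusp14 ratios for the proliferation gate, 2.14 in CD4+ Tconv and 2.34 in CD8+ T cells, fell to 1.01 and 1.39 when cells were matched for depth, and the CD4+ value was 1.28 without the cell with 13 UMIs and 1.02 without library 5.

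Calls in CD4+ Tconv against CD8+ T cells were also counted over the 7 genes as a set. All 7 passed the minimum of 50 UMIs over both populations, 4 of them (Dusp4, Dusp6, Dusp10 and Dusp14) were at least 1.5-fold higher in CD4+ Tconv cells, and 1 (Dusp2) was as much lower. Of the 8986 genes that passed, 8.02% were higher and 6.33% lower by that limit. The median log2 ratio was 0.71 for the 7 genes and 0.04 for all. These values chose the genes, so the counts are given without a reading.

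Calls in the Foxp3, Ccr8 and Pdcd1 comparisons were counted in the same way and are also given without a reading. Of 5 members that passed in Foxp3+ against CD4+ Tconv cells, 0 were higher (12.6% of all genes) and 2 lower (8.86%). In Ccr8+ CD4+ Tconv cells 2 of 7 were higher (6.65% of all genes) and 0 lower (12.2%). In Pdcd1+ CD4+ Tconv cells 1 was higher (6.38%) and 1 lower (5.87%), and in Pdcd1+ CD8+ T cells 2 were higher (5.03%) and 0 lower (2.55%). Values close to the limit were those of Dusp4 in Ccr8+ CD4+ Tconv cells, 1.46 (0.970 to 2.14), and of Dusp2 in the same cells, 0.735 (0.614 to 0.873). Among the alternatives the former ran from 0.564 to 1.69, on both sides of 1, and the latter from 0.596 to 0.960. Cells with a UMI of a gate gene were deeper, with a median of 3069 against 1515.5 UMIs for Ccr8, 2563.5 against 1483 for Pdcd1 in CD4+ Tconv cells and 2889 against 1558.5 in CD8+ T cells.

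**Figure D3:**
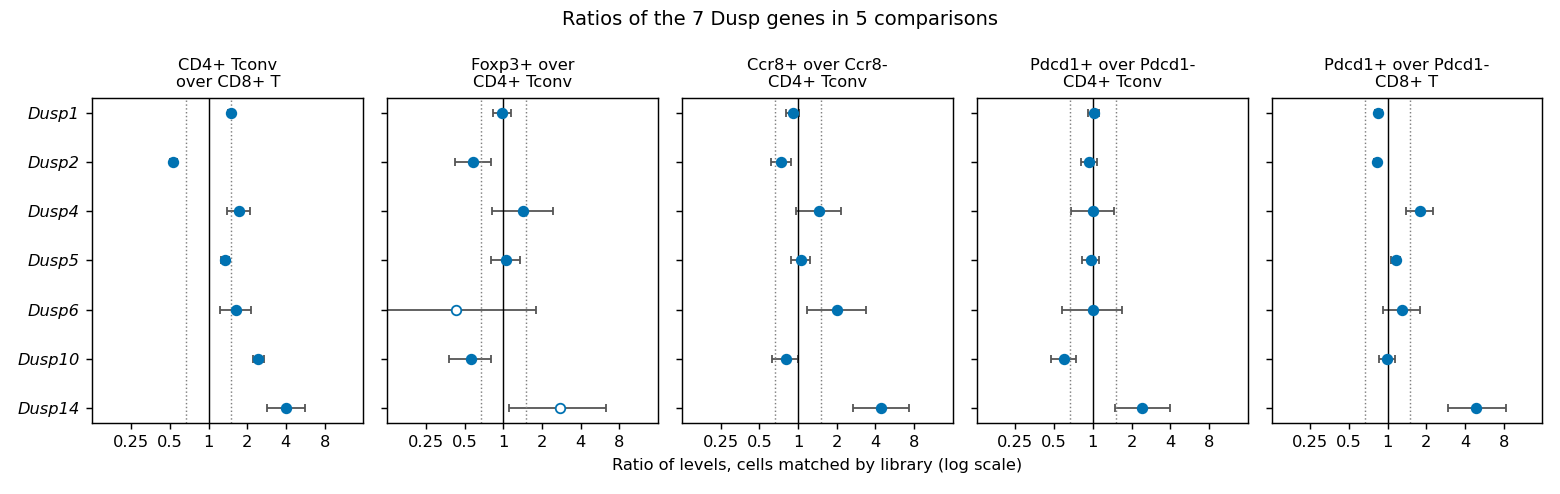
Ratio of the level of each gene between populations of cells, matched by library, on a log axis; bars are exact 95% intervals, dotted lines mark 1.5-fold either way, and open circles are members under the minimum of 50 UMIs. Dusp10 and Dusp14 stand to the right and Dusp2 to the left of the line of equal levels in CD4+ Tconv over CD8+ T cells, and Dusp14 has the highest ratio in both Pdcd1 comparisons.

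Apart from Ccr8, whose positive cells were among those already known, the state gates were not used to choose the genes. The libraries could not be tied to samples, and no test was applied to the state gates either. They held 31 ratios past the limit among 105, and 1 of these was Dusp14 in CD8+ T cells with a Th2 cytokine UMI, where no UMI was found and 1.74 were expected, at most the 3 counts that a count of 0 allows. The interferon gate called 1 member up and 1 down in CD4+ Tconv cells, against 5.83% and 4.76% of all genes, and 1 up (Dusp14, 2.0) in CD8+ T cells, against 3.5% up and 2.35% down. The Th2 cytokine gate called 2 up (Dusp4, 1.55, and Dusp14, 2.62) and 1 down in CD4+ Tconv cells (8.36% and 11.5% of all genes), and 3 up and 2 down in CD8+ T cells (13.1% and 20.9%). The Il2ra gate called 2 up and 1 down in CD4+ Tconv cells (8.79% and 7.43%) and the same numbers in CD8+ T cells (7.67% and 5.83%). In the Th2 cytokine gate of CD4+ Tconv cells the Dusp14 call was lost on matching for depth (1.5), and the Dusp4 call in 4 alternatives, among them without library 5 (1.37).

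The Tcf7 gate called 2 up and 1 down (Dusp4) in CD4+ Tconv cells (6.57% and 10.3% of all genes) and none in CD8+ T cells (3.08% and 5.7%). Gzmb called none in CD4+ Tconv cells (5.07% and 5.03%) and Dusp4 and Dusp14 up in CD8+ T cells (7.53% up and 4.41% down). Proliferation called 1 up and 2 down in CD4+ Tconv cells (10.8% and 11.7%) and 1 up in CD8+ T cells (11.8% up and 8.22% down). Havcr2 called Dusp4 alone in both lineages, at 1.85 and 1.68 (CD4+ Tconv 9.24% up and 8.42% down, CD8+ T 6.12% and 6.25%), and the former was lost without library 1 (1.49). Ccr8 in the CD8+ gate called Dusp4 (1.68) and Dusp14 (3.61) up and Dusp2 (0.631) down, where 10.9% of all genes were up and 14.2% down, and Dusp10 was just outside at 0.57 on the log2 scale. The Dusp2 call was lost on matching for depth (0.722) and without library 5 (0.678), and the Dusp4 call without library 1 (1.47). The Dusp14 value came from 11 UMIs in 5 cells and was 2.15 without library 3.

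**Figure D4:**
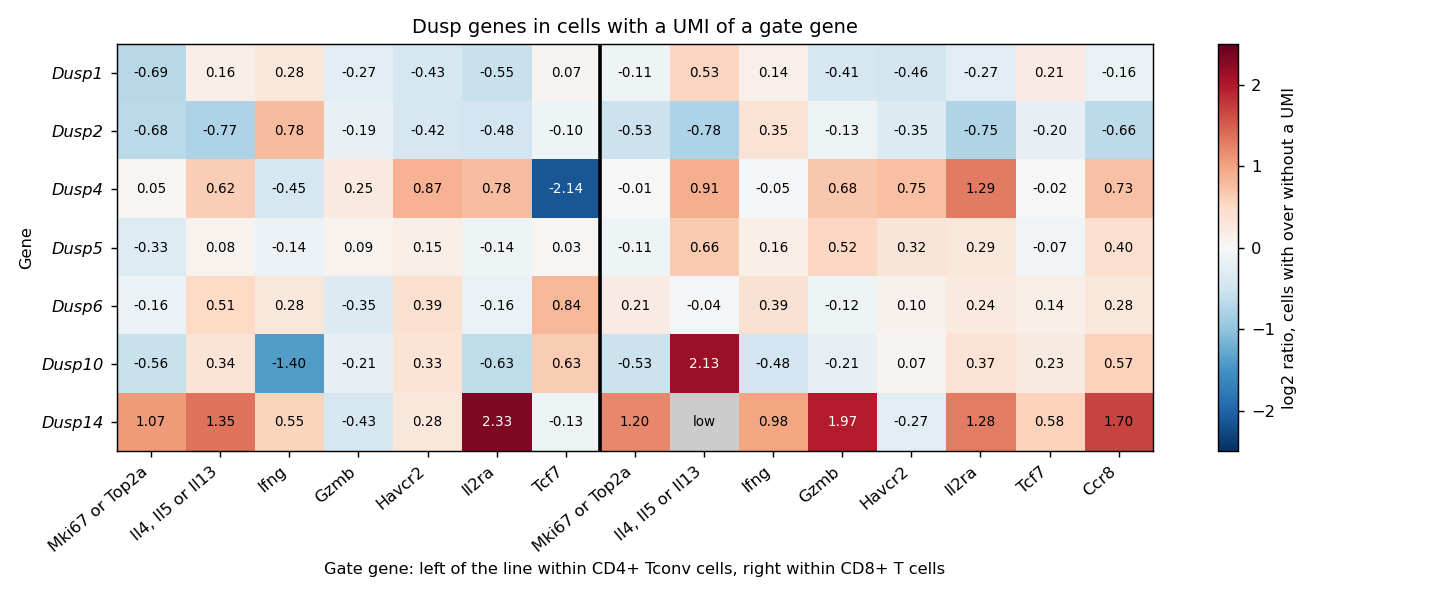
Log2 ratio of the level of each gene in cells with a UMI of the gate gene over cells without, matched by library, in CD4+ Tconv cells (left of the line) and CD8+ T cells (right); red is higher, blue is lower, and the grey square had no more than 3 UMIs observed or expected. The deepest colors are Dusp14 with Il2ra in CD4+ Tconv cells (2.33), Dusp10 with Il4, Il5 or Il13 in CD8+ T cells (2.13) and Dusp4 with Tcf7 in CD4+ Tconv cells (-2.14).

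Whether the genes occur in the same cells was asked of the 21 pairs. The number of cells with UMIs of both was divided by the number expected if the genes were independent within cells of the same library and depth decile. A single pair exceeded 1.5: Dusp4 and Dusp14 were together in 45 cells where 18.8 were expected, a ratio of 2.40 (1.75 to 3.21), above expectation in 6 of 6 libraries and 2.22 to 2.59 without any 1 library. Matched also by lineage gate it was 2.14. Dusp5 and Dusp10 were together at 1.23 (1.16 to 1.31) and Dusp4 and Dusp5 at 1.21 (1.08 to 1.35). Dusp2 and Dusp10, which Ifng and the CD4+ and CD8+ gates each split in opposite directions, were the only pair with an interval under 1. They were together in 905 cells against 1105 expected, 0.819 (0.767 to 0.874), under expectation in 6 of 6 libraries. With cells matched also by lineage gate, the ratio of this pair was 0.855.

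The 45 cells with both Dusp4 and Dusp14 were 16 CD4+ Tconv cells, 10 CD8+ T cells, 1 Foxp3+ cell, 16 cells with no gating UMI and 2 with mixed gating UMIs. They came from all libraries, with 11, 2, 2, 11, 11 and 8 cells in libraries 1 to 6. Their median depth was 4750 UMIs against 1250.5 in all cells, which raises the share with any UMI, so each share is set beside the one expected from all cells of the same library and depth decile. An Il2ra UMI was in 60% of them against 27% expected (8.71% of all cells), a Ccr8 UMI in 44.4% against 13.2% (4.53%) and a Pdcd1 UMI in 51.1% against 32.2% (11.9%). A Gzmb UMI was in 42.2% against 51.1% expected, and CD4+ Tconv cells were 35.6% of them against 14.5% expected.

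**Figure D5:**
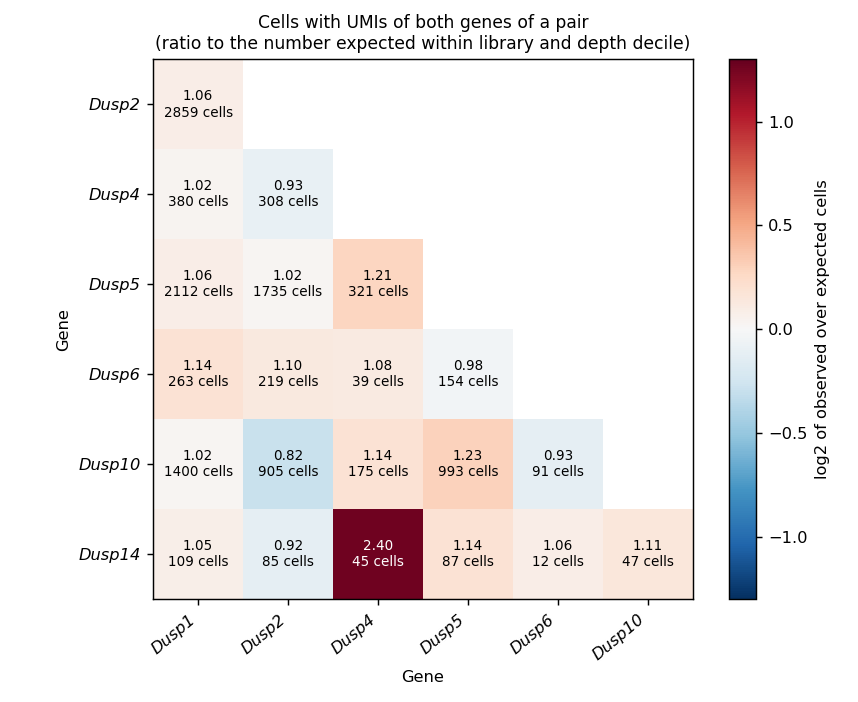
Number of cells with UMIs of both genes of a pair and its ratio to the number expected within library and depth decile; color gives log2 of the ratio, red for more and blue for fewer cells than expected. Dusp4 with Dusp14 stands out at 2.40 and Dusp2 with Dusp10 is lowest at 0.82.

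The genes outside the family with the highest ratio of observed to expected shared cells differed from member to member. Among 5807 genes seen in at least 300 cells, the highest ratios for Dusp1 were Klf4 (1.3), Atf3 (1.29), Fosb (1.28), Gm10501 (1.27) and Il4 (1.26), of which Klf4, Atf3 and Fosb encode early response transcription factors. Dusp2 was found with Nrarp (1.41), the chemokine genes Ccl3 (1.36), Ccl4 (1.34) and Xcl1 (1.34), and Wdr95 (1.28). Dusp5 was found with Ramp3 (1.35), Maff (1.35), the orphan nuclear receptor gene Nr4a3 (1.35), Areg (1.33) and Tmem64 (1.32). No gene reached 1.5 with Dusp1, Dusp2 or Dusp5.

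The ratio has a lower ceiling for an abundant member and rests on fewer cells for a rare one, so ratios are not ranked between members. Dusp10 was found with Areg (1.91), the amphiregulin gene, with Il4 (1.90), Ifngr2 (1.83), Ramp3 (1.76) and Lgals7 (1.72), and 0.207% of genes reached 1.5. Dusp4 was found with Ccrl2 (1.80), Il1r2 (1.79), Areg (1.77), Camk2n1 (1.76) and Cd74 (1.75), with 0.723% of genes at 1.5 or more. For Dusp14 the leading genes were Cd200 (2.81), Cd83 (2.70), Il1r2 (2.62), the decoy receptor of IL-1, Tnfsf11 (2.60), which encodes RANKL, and Rgs16 (2.41), and 6.78% of genes reached 1.5. Dusp6 was found with Tbc1d17 (1.98), Csnk1g1 (1.88), Zbtb17 (1.87), Tmem245 (1.84) and Ankrd54 (1.82), with 1.19% of genes at 1.5 or more, and these 5 partners rest on 26 to 47 cells with both genes.

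Other genes of the pathway were set beside the 7 members from lists. In CD4+ Tconv against CD8+ T cells, as given above, 8.02% of all genes were higher and 6.33% lower. Of the other 13 Dusp genes 7 passed the minimum, 2 higher (Dusp16, another JNK phosphatase, 2.87, and Dusp7, 1.56) and 1 lower (Dusp22, 0.557). Of 6 ERK feedback genes 3 passed and Spry1, an inhibitor of Ras signaling, was higher at 2.62. Of 20 MAP kinase cascade genes 19 passed, 3 of them higher, led by Map2k6 (2.79), which encodes a kinase that activates p38, and Mapk11 (2.40), which encodes p38β, with 0 lower. Of 20 immediate early genes 19 passed, 4 higher, led by Atf3 (2.34) and Egr2 (2.12), and 1 lower (Nr4a2, 0.510). Other T cell phosphatases gave 1 of 7 higher (Ptpn7, a phosphatase of ERK and p38, 1.53) and 0 lower. All 8 heat shock and dissociation genes passed with 0 called in either direction, although Hspa1a was at 1.48.

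In Pdcd1+ CD8+ T cells, where 5.03% of all genes were higher and 2.55% lower, 1 of 17 immediate early genes that passed was higher (Atf3, 1.79) and 2 lower (Jun, 0.600, and Fos, 0.633), and Spry1 was higher at 1.81. Of the heat shock and dissociation genes 3 of 8 were lower, among them Hspa1b (0.624) and Dnajb1 (0.647). In Ccr8+ CD4+ Tconv cells, where 6.65% of all genes were higher and 12.2% lower, 4 of 17 immediate early genes were higher, led by Nr4a2 (2.11) and Fosl2 (1.78), and 2 lower, Egr1 (0.549) and Ier3 (0.623). None of 13 MAP kinase cascade genes that passed there was called by the limit applied with 0.5 added to both counts, where Map2k4 was at 0.57 on the log2 scale.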

How the data were processed

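Single-cell RNA sequencing of TCRβ+ T cells was performed by the authors with 10x Chromium 5′ chemistry, Cell Ranger and Seurat. The deposited values are UMI counts for each gene and cell, which the authors filtered and did not normalize. Their columns name a barcode and a library number, so the table was treated as 1 pool; unused columns numbered 0. The 7 genes and all lists were chosen with earlier results of these data known. Cells were gated at 1 UMI. A level is UMIs per 10000 UMIs. Ratios were matched by library and left a library out only where either population was missing from it. A library was counted as higher or lower only if each population had 10 or more cells there. Genes needed at least 50 UMIs over the 2 populations, and a gene was called at 1.5-fold with 0.5 added to both counts on the log2 scale. Intervals are exact Poisson or conditional 95% intervals. The main design needed no p-value and none was computed. Partner genes were the 5 with the highest ratio per member outside the T cell receptor segments, and from each pathway list the 2 highest and 2 lowest ratios could be named. A planned state gate and the alternative built on it are not reported here. No doublet caller was run. Alternatives changed the matching (library and depth quartile, or none), the unit (mean over cells, thinning to 1000 UMIs), the gate (2 UMIs), the minimum (1 or 200 UMIs) and the cells (each library, the deepest 5% and cells with both Cd4 and Cd8 UMIs as possible doublets left out). Chosen after seeing the data were cells with a Cd3 UMI, leaving out the cell with most UMIs, and all alternatives for the state gates. The gate at 2 UMIs and the other minimums were not tried for the state gates. Steps were tested on simulated data. Python 3.11.15, numpy 2.4.6, scipy 1.17.1, pandas 2.3.3 and matplotlib 3.10.9 were used.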

Additional observations from a re-analysis of the deposited data

Results flagged for a closer look

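Dusp10 went opposite ways in Il2ra+ cells of the 2 lineages: its ratio to Il2ra- cells of the same library was 1.29 in CD8+ T cells, higher in each of 4 libraries, and 0.645 in CD4+ Tconv cells, lower in each of 4 libraries. The difference between the lineages was not tested. The CD8+ ratio was not past the limit and was 1.05 at its lowest among the alternatives. The CD4+ call was lost in 4 alternatives, where cells were matched for depth at 0.791.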

How the results depend on the processing

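No paired analysis was possible because the library numbers could not be tied to the replicate numbers of the labels; gated cells were compared within each library. No ratio past the limit changed direction. Of 13 called ratios in the 5 comparisons, 5 stayed called under all 15 alternatives and 5 more were lost only where UMIs fell under the minimum. Of 31 in the state gates, 6 stayed called under all 12 and 8 more were lost only in that way. In Foxp3+ against CD4+ Tconv cells, 1 member was lower when matched by depth quartile, and higher were 1 by mean over cells, 2 without matching by library and 1 at a minimum of 1 UMI. Leaving out 1 library gave 1 to 2 lower. In Ccr8+ cells higher members numbered 0 when thinned to 1000 UMIs (8113 cells kept), 0 at a minimum of 200 UMIs and 1 without possible doublets, and 1 was lower with a gate at 2 UMIs. Leaving out 1 library gave 1 to 3 higher and 0 to 1 lower. In Pdcd1+ CD4+ Tconv cells 0 were higher when thinned, without possible doublets, with a gate at 2 UMIs or at 200 UMIs, 0 were lower by mean over cells or without possible doublets, and leaving out 1 library gave 0 to 1 higher. In Pdcd1+ CD8+ T cells 1 was higher when thinned, without possible doublets or at 200 UMIs. The span between libraries became 2.25 by mean over cells and 3.08 thinned for Dusp1, 2.18 and 2.29 for Dusp2, 3.25 thinned for Dusp5, and 2.33 thinned for Dusp10. Matched by library only, 4 pairs passed the limit. Fewer cells and UMIs remain under thinning, the 200 UMI minimum and the stricter gate, and Dusp14 and Dusp6 then lack counts; the cause of the other changes was not tested. Dusp4, Dusp6 and Dusp14 had the fewest UMIs of the 7.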
